A study of Mus musculus with 4 samples.

Results

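The chemokines and chemokine receptors of mouse pancreas are described here in 4 RNA sequencing libraries. Members were every gene symbol in the count files that begins with Ccl, Cxcl, Xcl, Cx3cl, Ccr or Cxcr followed by a digit. This rule gave 58 of the 55291 genes, 41 ligands and 17 receptors. The 2 control libraries came from pancreas of mice carrying Pdx1-Cre and 1 floxed copy of poh1 (Pdx1-Cre+, poh1f/+), and the 2 libraries labelled knockout came from mice carrying Pdx1-Cre and 2 floxed copies (Pdx1-Cre+, poh1f/f). All 4 libraries therefore carried the Cre recombinase and at least 1 floxed allele. Pdx1-Cre is driven by a promoter of the embryonic pancreatic epithelium, so immune and stromal cells were not its target. The labels give no strain, age or sex and do not say if animals were separate. The p-values therefore set the difference between labels against a spread of samples that may be technical, and may not extend to other animals.

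Chemokines are small secreted proteins that guide leukocyte movement, and their receptors are G protein-coupled receptors on the responding cells. One group of them, Ccl19 and Ccl21 with receptor Ccr7 and Cxcl13 with receptor Cxcr5, brings T cells, dendritic cells and B cells together in lymph nodes and in lymphoid aggregates of other tissues. Others recruit monocytes (Ccl2 with Ccr2), activated T cells (Cxcl9 and Cxcl10 with Cxcr3), eosinophils (Ccl11 with Ccr3) or neutrophils (Cxcl1 with Cxcr2) to inflamed tissue. In the pancreas, acinar, duct and islet cells, fibroblasts and resident macrophages can all release chemokines under stress.

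Total counts ranged from 22875618 to 27849730 per library, and 1 count was worth 0.0342 to 0.0455 CPM (counts on a common, scaled library total). Members took 0.186% to 0.204% of all counts in controls and 0.273% to 0.290% in labelled-knockout libraries. RNA of Psmd14, the current symbol of poh1, was 61.6 and 52.9 CPM in control replicates 1 and 2 and 65.9 and 65.2 CPM in labelled-knockout libraries (edgeR adjusted p = 0.259), so it does not show the deletion, and every direction below is one between labels. Counts are per gene and cannot show whether a part of the transcript was missing. All 7 acinar markers had counts in every library, but their summed level was 9409 and 2243 CPM in controls and 197 and 595 CPM in labelled-knockout libraries. Markers of small intestinal epithelium stood at 558 CPM in sum in knockout replicate 2 and at 10.03 to 33.8 CPM in the other libraries; 3 of those 8 genes were at 0 in both controls.

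Sequences upstream of 5 ligand genes are shown because they carry letters of elements through which interferon and NF-kB act, and because Cxcl10 and Ccl19 rose while Cxcl1, Cxcl2 and Cxcl3 did not pass. They come from RefSeq (GRCm38.p6), in which 41 of the 58 members had a promoter entry, and they are written 5′ to 3′ on the strand of the gene. Capitals mark letters that match the NF-kB consensus or the interferon-stimulated response element (GAAA, 2 bases of any kind, GAAA), each searched on both strands in the 250 bases before the start site. In Cxcl10 the capital runs are, in order, the interferon element and 2 NF-kB matches; in Ccl19 the capitals are the interferon element. In Cxcl1, Cxcl2 and Cxcl3 each capital run holds overlapping NF-kB matches of the 2 strands.
Cxcl10, chr5:92348890-92349139, minus strand: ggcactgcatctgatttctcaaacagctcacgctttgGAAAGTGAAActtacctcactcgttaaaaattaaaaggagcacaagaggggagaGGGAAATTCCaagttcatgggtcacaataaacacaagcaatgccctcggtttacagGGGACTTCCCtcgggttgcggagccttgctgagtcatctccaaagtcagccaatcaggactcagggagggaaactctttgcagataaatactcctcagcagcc
Ccl19, chr4:42756526-42756605, minus strand: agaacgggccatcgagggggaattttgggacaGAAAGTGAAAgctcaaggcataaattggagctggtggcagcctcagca
Cxcl1, chr5:90891135-90891214, plus strand: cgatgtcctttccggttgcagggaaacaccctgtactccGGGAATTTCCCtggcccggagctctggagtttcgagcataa
Cxcl2, chr5:90903769-90903848, plus strand: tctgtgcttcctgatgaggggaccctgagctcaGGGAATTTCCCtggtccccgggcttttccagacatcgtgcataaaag
Cxcl3, chr5:90785991-90786070, plus strand: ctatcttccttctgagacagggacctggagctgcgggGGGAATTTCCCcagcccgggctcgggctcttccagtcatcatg

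The NF-kB consensus was present before 8 of the 41 members with a promoter entry, and 3.9% of all 32851 promoter entries held it. Of those 8, Cxcl10 and Ccr6 were higher in labelled-knockout libraries, Ccr3 was lower, and Ccl20, Ccl9, Cxcl1, Cxcl2 and Cxcl3 did not pass the test described below. The interferon element was present before Ccl19 and Cxcl10, which rose, and before Cxcl14, which fell, against 2.98% of all promoter entries. The interferon gamma element TTCNNNGAA was present before Ccl17, Ccr6, Cxcl14 and Ccr1l1, against 7.02%. Members were counted as genes, with a match in any of their promoter entries (48 entries for 41 members). The percentages are over single entries, so the 2 measures are not alike. A match is a description of letters and does not show binding. The search took a single consensus per element in 250 bases. A promoter without a match may therefore hold other forms of the element or more distant ones.

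Of the 58 members, 49 had enough counts to be tested, and the other 9 had at most 4 counts in any library. The test was edgeR's quasi-likelihood test over 19134 genes, with Benjamini-Hochberg adjustment and a threshold of 0.05 on the adjusted p. Of the 49 tested members, 18 were higher in labelled-knockout libraries (36.7%), where 12.1% of all tested genes were higher. Another 8 were lower (16.3%), where 9.95% of all tested genes were lower, and 23 did not pass. The filter admits genes with counts in 1 group only, and 4 tested members (Ccl20, Ccr1l1, Ccr8 and Xcl1) reached its level through labelled-knockout libraries, whereas 44 reached it in all 4 libraries. Ligands were higher in 10 and lower in 4 of 33 cases, and receptors in 8 and 4 of 16. The median log2 fold change, labelled knockout minus control, was 0.17 for ligands and 1.95 for receptors, against 0.00 over all tested genes. The groups did not overlap in 25 members that were above controls and 15 that were below, out of 49, against 34.4% and 33.7% of all tested genes. All 26 called members were among these, so leaving out 1 library could hardly turn their direction. Without control replicate 1, 8 members were higher and 1 was lower, while 1126 of 20414 genes (5.52%) were called, against 4224 of 19134 (22.1%) with all libraries; all 26 called members kept their direction. In that setting 3.44% of tested genes were higher and 2.08% lower. Leaving out control replicate 2 (7.69% of tested genes higher, 5.58% lower), knockout replicate 1 (11.7% and 8.49%) or knockout replicate 2 (10.2% and 7.65%) gave 14, 18 and 19 members higher and 7, 9 and 7 lower. With a change of at least 2-fold also required (8.29% and 4.72% of all tested genes), 18 members were higher and 6 lower.

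**Figure D1:**
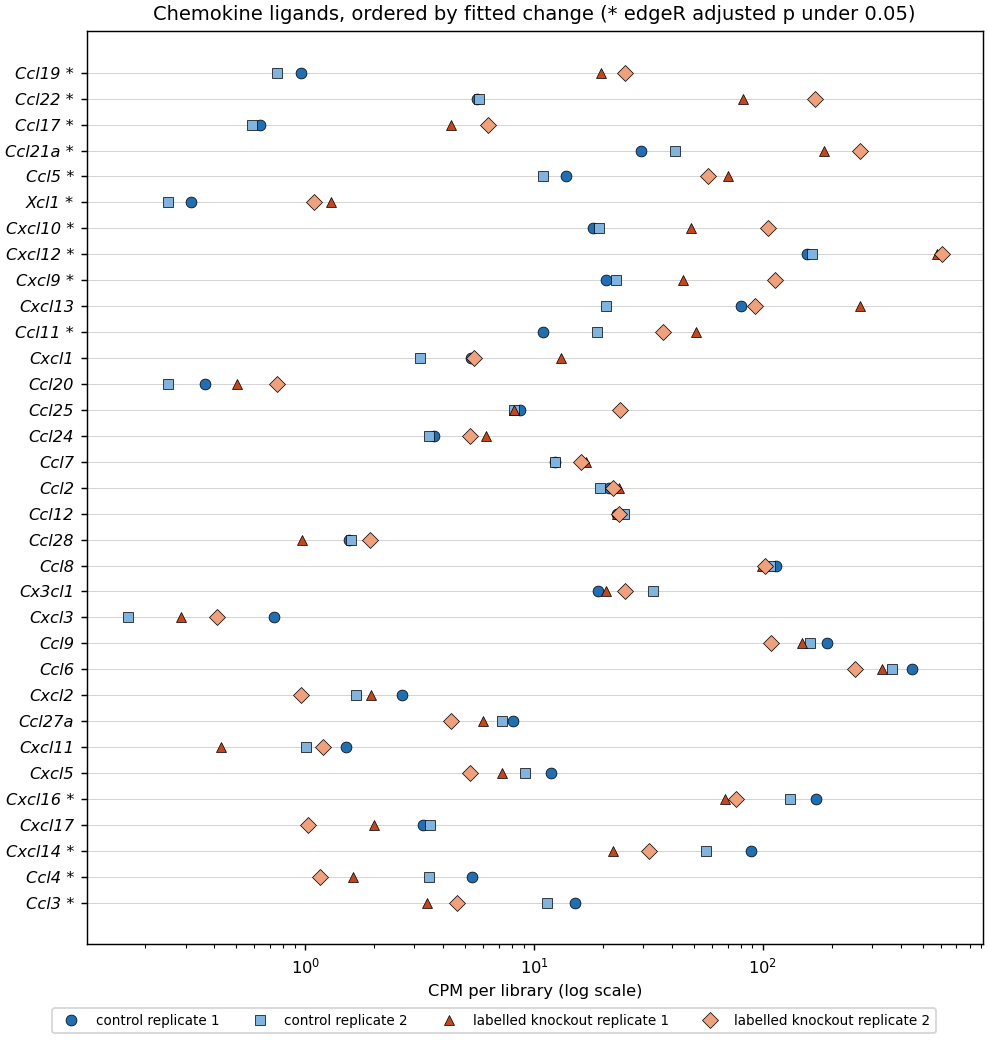
Level of the 33 tested ligands in each of the 4 libraries, in CPM on a log scale, ordered from the largest fitted rise at the top to the largest fall at the bottom; a star marks an edgeR adjusted p under 0.05. Ccl19 and Ccl22 show the widest gap between control and labelled knockout libraries, and Cxcl13 differs widely between replicates of both groups.

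The ligands that organise lymphoid tissue were higher in labelled-knockout libraries, with Cxcl13 as the member that did not pass. Ccl19 (chromosome 4, 42754525 to 42756577, minus strand), which attracts Ccr7-bearing T cells and dendritic cells, was at 0.955 and 0.753 CPM in control replicates 1 and 2 and at 19.6 and 24.9 CPM in labelled-knockout libraries. It rose by 4.70 ± 0.26 on the log2 scale (fold change ± SE, edgeR adjusted p = 0.00179). Ccl21a (chromosome 4, 42772860 to 42773993, minus strand), the other Ccr7 ligand, which lines lymphatic vessels and high endothelial venules, was at 29.4 and 41.2 CPM in controls and at 184 and 266 CPM in labelled-knockout libraries. It rose by 2.67 ± 0.26 (edgeR adjusted p = 0.00539), and its adjusted p was 0.0506 without control replicate 1. Both labelled knockout libraries stood far above both controls for these genes.

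Some reads of these ligands cannot be placed with certainty, because near-identical copies exist. The longest match between a Ccl21a and a Ccl21b transcript of GENCODE M21 was identical in 400 of 402 aligned bases, and Ccl19 matched its pseudogene Ccl19-ps3 in all 324 aligned bases. Ccl21b, Ccl21d and Ccl19-ps1 were listed at 0 in all 4 libraries and Ccl19-ps3 at 1 count in knockout replicate 1. The values of Ccl21a and Ccl19 may thus hold reads of their copies, or lack reads that fitted several places.

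Cxcl12 (chromosome 6, 117168535 to 117181367, plus strand), a stromal chemokine that retains Cxcr4-bearing cells, was at 155 and 164 CPM in controls and 577 and 605 CPM in labelled-knockout libraries. It rose by 1.89 ± 0.12 (edgeR adjusted p = 0.00236). All 4 adipocyte markers, each with counts in every library, rose in the same libraries (289 and 734 CPM in sum in controls, 3034 and 2619 CPM in labelled-knockout libraries), and their part in the level of Cxcl12, or of Ccl11 below, was not tested. Cxcl13 (chromosome 5, 95956951 to 95961068, plus strand), which draws Cxcr5-bearing B cells into follicles, was at 80.1 and 20.6 CPM in controls and at 264 and 91.9 CPM in labelled-knockout libraries. The groups did not overlap, but the replicates of each group lay far apart. The log2 fold change was 1.82 (95% interval −0.15 to 3.80, edgeR adjusted p = 0.153). It was 2.39 without knockout replicate 2 (edgeR adjusted p = 0.000607), 0.86 without knockout replicate 1 (0.188), 3.11 without control replicate 1 (0.128) and 1.15 without control replicate 2 (0.345), so its size depends on each library.

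Receptors of these ligands were higher for Ccr7 and Cxcr5 and not for Cxcr4. Ccr7 (chromosome 11, 99144196 to 99155077, minus strand), carried by naive T cells and mature dendritic cells, was at 7.96 and 7.07 CPM in controls and at 67.4 and 88.5 CPM in labelled-knockout libraries (3.37 ± 0.19, edgeR adjusted p = 0.00179). Cxcr5 (chromosome 9, 44511787 to 44561877, minus strand), the receptor of follicular B and helper T cells, was at 2.64 and 1.84 CPM in controls and at 56.0 and 59.5 CPM in labelled-knockout libraries. It had the largest rise of the tested receptors (4.69 ± 0.21, edgeR adjusted p = 0.00164). Cxcr4, the widely expressed Cxcl12 receptor, was at 91.7 and 69.7 CPM in controls and at 51.9 and 56.0 CPM in labelled-knockout libraries, without overlap between the groups (log2 fold change −0.58, edgeR adjusted p = 0.0547). Its adjusted p was 0.0363 without control replicate 2 and 0.0176 by DESeq2.

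Lymphocyte markers moved with these members, and so did most of the listed stromal, venule and lymphatic markers. All 6 B cell markers rose, with a summed level of 52.3 to 83.2 CPM in controls and 1037 to 1059 CPM in labelled-knockout libraries, and all 8 T cell markers rose, from 27.3 to 33.2 CPM up to 399 to 454 CPM. Of 5 markers of follicular dendritic cells and reticular stroma 4 rose (55.5 to 59.1 CPM in controls, 295 to 310 CPM in labelled-knockout libraries), of 4 high endothelial venule markers 3 rose (10.4 to 12.01 and 57.2 to 71.7 CPM), and of 4 lymphatic markers 3 rose (85.0 to 131 and 356 to 432 CPM). Every gene of these lists had counts in every library, but the lists overlap in content: Madcam1 is in both the stromal and the venule list, Tnfsf11 is also in the lymphotoxin list below, and Cr2 and Fcer2a are B cell genes as well. Cr2 and Fcer2a made up most of the stromal sum in labelled-knockout libraries, with group means of 129 and 106 CPM. In controls their means were 2.23 and 2.18 CPM, so the rise of that sum was mostly theirs. The stromal marker that did not pass was Pdpn, with a log2 fold change of −0.44 (edgeR adjusted p = 0.181). It was at 46.4 and 47.1 CPM in controls, most of the sum there, and at 41.2 and 27.9 CPM in labelled-knockout libraries. Single genes also made up most of the other 2 sums in labelled-knockout libraries. For the lymphatic list it was Lyve1, with group means of 39.2 CPM in controls and 237 CPM in labelled-knockout libraries. Prox1 rose less, from 22.2 to 33.7 CPM. For the venule list it was Glycam1, at 0.395 and 37.9 CPM. The part of all these markers in the result was not tested, and in tissue RNA more cells of a type and more RNA per cell cannot be told apart. Set against the B cell markers, Cxcr5 was at 3.17 and 3.52 CPM per 100 CPM of the list in controls and at 5.40 and 5.62 in labelled-knockout libraries. Ccr7 was at 23.9 and 25.9 CPM per 100 CPM of T cell markers in controls and at 16.9 and 19.5 in labelled-knockout libraries. Cxcr5 thus rose more and Ccr7 less than its marker list.

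**Figure D2:**
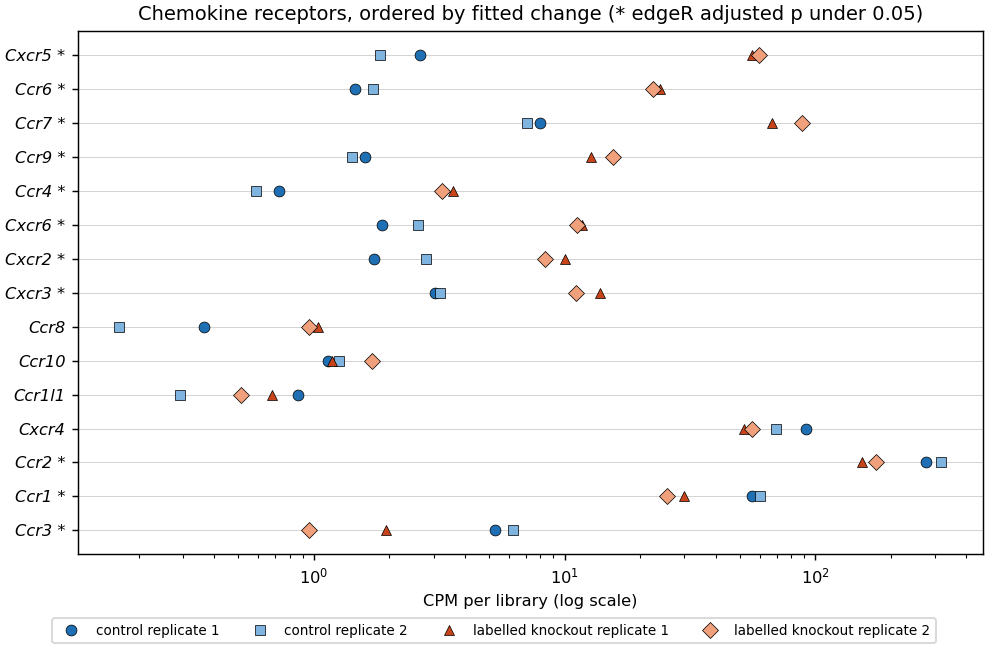
Level of 15 tested receptors in each of the 4 libraries, in CPM on a log scale, ordered by fitted change with the largest rise at the top; a star marks an edgeR adjusted p under 0.05. Cxcr5, Ccr6, Ccr7 and Ccr9 lie far higher in both labelled knockout libraries, and Ccr1, Ccr2 and Ccr3 lie lower in both.

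Receptors of B cells, memory T cells and gut-homing cells rose as well. Ccr6, found on B cells and T helper 17 cells, was at 1.46 and 1.72 CPM in controls and at 24.0 and 22.5 CPM in labelled-knockout libraries (3.87 ± 0.20, edgeR adjusted p = 0.00175). Its ligand Ccl20 was at 0.364 and 0.251 CPM in controls and at 0.501 and 0.753 CPM in labelled-knockout libraries and did not pass (edgeR adjusted p = 0.226). Relative to the B cell list, Ccr6 was at 1.75 and 3.28 CPM per 100 CPM in controls and at 2.32 and 2.12 in labelled-knockout libraries, values that overlap.

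Ccr9 (chromosome 9, 123678439 to 123784330, plus strand), the gut-homing receptor of T cells and plasma cells, was at 1.59 and 1.42 CPM in controls and at 12.8 and 15.6 CPM in labelled-knockout libraries (3.23 ± 0.24, edgeR adjusted p = 0.0031). Its ligand Ccl25, made by thymic and small intestinal epithelium, was at 8.69, 8.20 and 8.20 CPM in control replicates 1 and 2 and knockout replicate 1, and at 23.8 CPM in knockout replicate 2. That is the library in which intestinal markers summed to 558 CPM; 4 of 8 of those markers had counts in every library, and their part in the Ccl25 level was not tested. Ccl25 did not pass (log2 fold change 0.92, edgeR adjusted p = 0.241). Without knockout replicate 1 its log2 fold change was 1.49 (edgeR adjusted p = 0.000602), and without knockout replicate 2 it was −0.04 (0.957). Ccr9 was high in both labelled knockout libraries, and it stayed called without either of them. AC165425.1, a gene of the opposite strand, shares 1932 of the 10260 exonic bases of Ccr9, so its reads cannot be told apart there without the strand setting. Per 100 CPM of T cell markers, Ccr9 was at 4.79 and 5.21 CPM in controls and at 3.20 and 3.43 in labelled-knockout libraries. Ccr9 thus rose less than that list.

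Ccl22 and Ccl17, ligands of Ccr4 that mature dendritic cells release toward regulatory and type 2 T cells, rose together with Ccr4. Ccl22 (chromosome 8, 94745590 to 94751699, plus strand) was at 5.64 and 5.73 CPM in controls and at 82.1 and 169 CPM in labelled-knockout libraries, a rise of 4.46 ± 0.40 (edgeR adjusted p = 0.0044). Ccl17 (chromosome 8, 94810453 to 94812036, plus strand) was at 0.637 and 0.586 CPM in controls and at 4.33 and 6.26 CPM in labelled-knockout libraries (3.11 ± 0.36, edgeR adjusted p = 0.00777). Between them on the chromosome lies Cx3cl1, the membrane-bound ligand of Cx3cr1, which was at 19.0 and 33.1 CPM in controls and at 20.6 and 24.99 CPM in labelled-knockout libraries, with overlap (edgeR adjusted p = 0.664). Ccr4 was at 0.728 and 0.586 CPM in controls and at 3.58 and 3.25 CPM in labelled-knockout libraries (2.37 ± 0.33, edgeR adjusted p = 0.0119). Per 100 CPM of T cell markers, Ccr4 was at 2.19 and 2.15 CPM in controls and at 0.898 and 0.716 in labelled-knockout libraries. It thus rose less than that list. Without control replicate 1 the adjusted p was 0.0612 for Ccl22, 0.0608 for Ccl17 and 0.0627 for Ccr4, and without control replicate 2 it was 0.0517 for Ccr4.

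Dendritic cell markers moved less than Ccl22. Of 6, 4 rose, with a summed level of 110 to 113 CPM in controls and 166 to 201 CPM in labelled-knockout libraries. Ccl22 was at 4.996 and 5.19 CPM per 100 CPM of this list in controls and at 49.5 and 84.2 in labelled-knockout libraries. Xcr1, the receptor of cross-presenting dendritic cells, which the naming rule does not take in, was at 40 and 52 counts in controls and at 512 and 790 counts in labelled-knockout libraries (3.50 ± 0.28, edgeR adjusted p = 0.00359). Its ligand Xcl1, released by natural killer and CD8 T cells, was at 7 and 6 counts in controls and at 36 and 32 in labelled-knockout libraries (2.05 ± 0.44, edgeR adjusted p = 0.0324). The call of Xcl1 was lost when any 1 library was left out, with an adjusted p from 0.0907 to 0.144, and by DESeq2 (0.0569). A gene on the opposite strand, Gm20743, shares 98 of the 523 exonic bases of Xcl1.

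**Figure D3:**
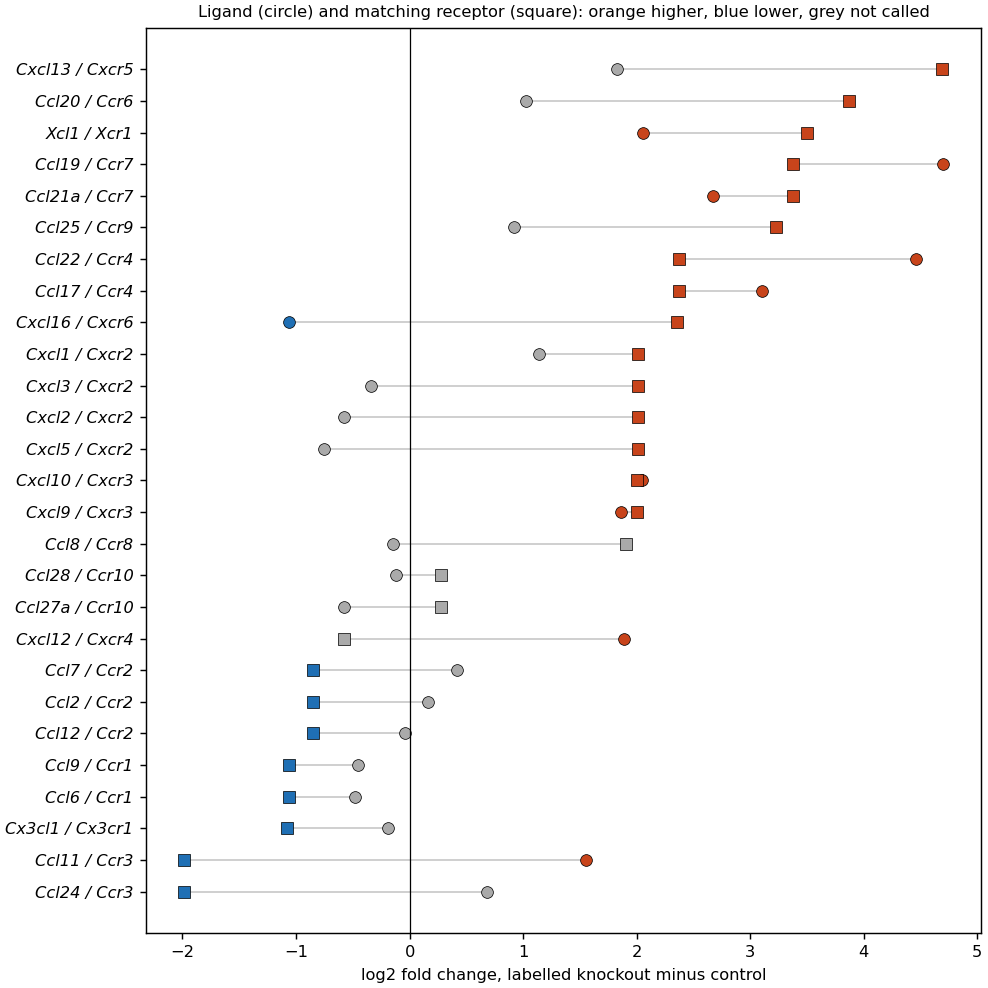
Log2 fold change, labelled knockout minus control, of 27 ligand and receptor pairs, with the ligand as a circle and the receptor as a square (orange called higher, blue called lower, grey not called); Ccl1 with Ccr8 is not drawn because Ccl1 was not tested. Cxcl16 with Cxcr6 and Ccl11 with Ccr3 stand out as pairs in which ligand and receptor were called in opposite directions.

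Among ligands of activated T cells and of macrophages, some rose and some fell. Cxcl9 and Cxcl10, interferon gamma-induced ligands of Cxcr3, were at 20.6 and 22.8 CPM and at 18.1 and 19.2 CPM in controls. In labelled-knockout libraries, Cxcl9 was at 44.7 and 113 CPM and Cxcl10 at 48.7 and 105 CPM, so knockout replicate 2 was more than 2-fold above knockout replicate 1 for each. Cxcl10 (chromosome 5, 92346638 to 92348889, minus strand) rose by 2.04 ± 0.37 (edgeR adjusted p = 0.0215), and Cxcl9 rose with a log2 fold change of 1.86 (edgeR adjusted p = 0.041). Their neighbour Cxcl11 was at 33, 24, 12 and 35 counts in control replicates 1 and 2 and knockout replicates 1 and 2, and did not pass (edgeR adjusted p = 0.494). The receptor Cxcr3, found on T helper 1 and CD8 T cells, was at 3.05 and 3.18 CPM in controls and at 13.8 and 11.1 CPM in labelled-knockout libraries (1.999 ± 0.22, edgeR adjusted p = 0.00749).

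Without control replicate 1 the edgeR adjusted p was 0.211 for Cxcl9, 0.144 for Cxcl10 and 0.0538 for Cxcr3, with log2 fold changes of 1.80, 2.01 and 1.97. Without control replicate 2 it was 0.16 for Cxcl9 and 0.11 for Cxcl10, and for Cxcl9 limma-voom gave 0.0683 and edgeR with a filter on mean count 0.0501. Art3, a gene of the opposite strand with 387, 884, 2287 and 1924 counts in control replicates 1 and 2 and knockout replicates 1 and 2, shares 133 of the 2252 exonic bases of Cxcl10, and its part in the Cxcl10 counts was not tested. Against the T cell markers, Cxcr3 was at 9.17 and 11.7 CPM per 100 CPM in controls and at 3.46 and 2.45 in labelled-knockout libraries, so it rose less than the list.

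Ccl5 (chromosome 11, 83525778 to 83530518, minus strand), released by T and natural killer cells, was at 13.7 and 11.0 CPM in controls and at 70.6 and 57.3 CPM in labelled-knockout libraries (2.37 ± 0.18, edgeR adjusted p = 0.0033). Per 100 CPM of T cell markers, Ccl5 was at 41.3 and 40.2 CPM in controls and at 17.7 and 12.6 in labelled-knockout libraries. It thus rose less than that list. Ccl3 and Ccl4, macrophage inflammatory proteins whose genes lie in the same cluster as Ccl5, went the other way. Ccl3 was at 15.1 and 11.4 CPM in controls and at 3.40 and 4.62 CPM in labelled-knockout libraries, and fell by 1.72 ± 0.27 (edgeR adjusted p = 0.0149). Ccl4 was at 118, 83, 45 and 34 counts in control replicates 1 and 2 and knockout replicates 1 and 2, and fell by 1.67 ± 0.37 (edgeR adjusted p = 0.0356). Without control replicate 1 the adjusted p was 0.0842 for Ccl3 and 0.144 for Ccl4, whereas Ccl5 stayed called. The call of Ccl4 was also lost without control replicate 2 (0.0595) and without knockout replicate 2 (0.0509).

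Cxcl16 and its receptor Cxcr6 were called in opposite directions. Cxcl16, a transmembrane chemokine of macrophages and epithelium, was at 171 and 132 CPM in controls and at 68.5 and 76.3 CPM in labelled-knockout libraries, and fell by 1.06 ± 0.16 (edgeR adjusted p = 0.0134; 0.0502 without control replicate 1). Cxcr6, found on tissue-resident T cells and natural killer T cells, was at 1.86 and 2.59 CPM in controls and at 11.7 and 11.2 CPM in labelled-knockout libraries (2.35 ± 0.26, edgeR adjusted p = 0.00739). Per 100 CPM of T cell markers, Cxcr6 was at 5.61 and 9.51 CPM in controls and at 2.93 and 2.46 in labelled-knockout libraries. It thus rose less than that list. Zmynd15, a gene of the opposite strand, shares 552 of the 3021 exonic bases of Cxcl16, so reads of the 2 genes cannot be told apart there without the strand setting.

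Receptors of monocytes and macrophages fell, while most of their ligands did not pass. Ccr2 (chromosome 9, 124101950 to 124113557, plus strand), the receptor by which monocytes leave the blood, was at 275 and 318 CPM in controls and at 153 and 175 CPM in labelled-knockout libraries, and fell by 0.85 ± 0.14 (edgeR adjusted p = 0.0165). Ccr1, a receptor of monocytes and neutrophils, was at 55.7 and 60.1 CPM in controls and at 29.8 and 25.5 CPM in labelled-knockout libraries, and fell by 1.07 ± 0.13 (edgeR adjusted p = 0.00863). Cx3cr1, the fractalkine receptor of resident macrophages, which the naming rule does not take in, was at 2970 and 3167 counts in controls and at 1750 and 1858 counts in labelled-knockout libraries. It fell by 1.08 ± 0.09 (edgeR adjusted p = 0.0039). Without control replicate 1 the adjusted p was 0.0502 for Ccr2 and 0.0504 for Ccr1, with log2 fold changes of −0.95 and −1.12.

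The Ccr2 ligands Ccl2, Ccl7 and Ccl12, which call monocytes out of marrow and blood, differed little between the groups. Ccl2 was at 21.3 and 19.4 CPM in controls and at 23.5 and 22.2 CPM in labelled-knockout libraries (log2 fold change 0.17, 95% interval −0.18 to 0.51). Ccl12 was at 23.1 and 24.6 CPM in controls and at 22.9 and 23.4 CPM in labelled-knockout libraries (−0.04, interval −0.36 to 0.28), and Ccl7 was at 12.3 and 12.3 CPM in controls and 16.8 and 16.0 CPM in labelled-knockout libraries (0.41, interval 0.03 to 0.79, edgeR adjusted p = 0.11). These intervals exclude a change of 2-fold for each of the 3 genes. Ccl8, a monocyte and T cell chemokine, was at 114 and 107 CPM in controls and at 98.9 and 102 CPM in labelled-knockout libraries (−0.14, interval −0.39 to 0.10).

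Ccl6 and Ccl9, Ccr1 ligands of mouse myeloid cells, were at 226 and 57.6 CPM per kb of exon in controls, beside Ccl8 at 217. Ccl6 was at 446 and 365 CPM in controls and at 330 and 253 CPM in labelled-knockout libraries (log2 fold change −0.48, edgeR adjusted p = 0.133). Ccl9 was at 190 and 160.6 CPM in controls and at 148 and 109 CPM in labelled-knockout libraries (−0.45, edgeR adjusted p = 0.142). The groups did not overlap for either gene, but the test did not separate the gap from the spread within groups. Of 9 macrophage markers 6 fell and none rose, all with counts in every library, and their summed level was 4116 to 4600 CPM in controls and 2715 to 2962 CPM in labelled-knockout libraries; their part in these levels was not tested. Per 100 CPM of these markers, Ccr2 was at 5.98 and 7.73 CPM in controls and 5.18 and 6.43 in labelled-knockout libraries, and Ccl6 was at 9.70 and 8.86 and at 11.1 and 9.31. For Ccr2 and Ccl6 these ratios overlapped between the groups. For Ccr1 they did not, at 1.21 and 1.46 in controls and at 1.01 and 0.938 in labelled-knockout libraries, nor for Cxcl16, at 3.72 and 3.20 and at 2.31 and 2.81.

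The eosinophil axis was split. Ccl11, or eotaxin, which fibroblasts and smooth muscle release, was at 11.0 and 18.9 CPM in controls and at 51.2 and 36.5 CPM in labelled-knockout libraries (1.55 ± 0.31, edgeR adjusted p = 0.0278; 0.0953 without control replicate 1). Ccl24, or eotaxin 2, was at 80 and 83 counts in controls and at 172 and 154 counts in labelled-knockout libraries and did not pass (0.68, edgeR adjusted p = 0.107). Their receptor Ccr3, of eosinophils, was at 116 and 148 counts in controls and at 54 and 28 counts in labelled-knockout libraries, and fell by 1.99 ± 0.42 (edgeR adjusted p = 0.0303). Its call was lost without control replicate 1 (0.116) or control replicate 2 (0.11).

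Neutrophil ligands gave no call, although their receptor did. Cxcl1 was at 5.28 and 3.18 CPM in controls and at 13.1 and 5.48 CPM in labelled-knockout libraries (log2 fold change 1.14, edgeR adjusted p = 0.164), with 1.64 without knockout replicate 2 (0.00304) and 0.37 without knockout replicate 1 (0.617). Cxcl5 was at 11.8 and 9.16 CPM in controls and at 7.24 and 5.24 CPM in labelled-knockout libraries (−0.75, edgeR adjusted p = 0.102). Cxcl2 was at 58, 40, 54 and 28 counts and Cxcl3 at 16, 4, 8 and 12 counts in control replicates 1 and 2 and knockout replicates 1 and 2, both with overlap between the groups. Cxcl1, Cxcl2 and Cxcl3, which share the printed NF-kB letters, therefore had log2 fold changes of both signs (1.14, −0.57 and −0.34), none of which passed.

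Cxcr2, the main receptor of neutrophils for these ligands, was at 38 and 67 counts in controls and at 279 and 244 counts in labelled-knockout libraries (2.01 ± 0.32, edgeR adjusted p = 0.0162; 0.065 without control replicate 1). Cxcr1 was listed at 2, 1, 4 and 4 counts and was not tested. Neutrophil markers as a list did not move with Cxcr2: of 6 tested, 1 rose and 2 fell, Ly6g was at 0 in controls, and their summed level was 172 to 191 CPM in controls and 95.9 to 96.8 CPM in labelled-knockout libraries. Most of that sum was Csf3r, at 147 and 136 CPM in controls and at 72.0 and 73.1 CPM in labelled-knockout libraries, while S100a8, S100a9 and Mpo were above controls in both labelled-knockout libraries and Mpo passed (edgeR adjusted p = 0.0224). Their part in the Cxcr2 level was not tested.

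Cxcl14 (chromosome 13, 56288643 to 56296551, minus strand), a chemokine of fibroblasts and epithelium, was at 88.5 and 56.4 CPM in controls and at 22.0 and 31.8 CPM in labelled-knockout libraries, and fell by 1.43 ± 0.28 (edgeR adjusted p = 0.0262; 0.116 without control replicate 1). Of 7 fibroblast markers, 5 fell and none rose, all with counts in every library. Their summed level was 24325 to 28394 CPM in controls and 8753 to 10035 CPM in labelled-knockout libraries. Most of that sum in each library was collagen RNA (Col1a1, Col1a2 and Col3a1). The markers that did not pass were Dcn (log2 fold change −0.13, edgeR adjusted p = 0.599) and Pdgfra (−0.61, edgeR adjusted p = 0.062). The part of the fibroblast markers in the Cxcl14 level was not tested. Of 5 duct markers 4 fell (473 to 517 CPM in sum in controls, 158 to 178 CPM in labelled-knockout libraries) and of 5 islet markers 2 fell (747 to 1333 and 109 to 348 CPM), all with counts in every library, and their part in the levels of Cxcl14 and Cxcl16 was not tested. Cxcl17, a mucosal chemokine, was at 72 and 84 counts in controls and at 56 and 30 counts in labelled-knockout libraries (log2 fold change −1.16, edgeR adjusted p = 0.104; 0.0298 without knockout replicate 1). Ccl27a, a skin chemokine, was at 178 and 173 counts in controls and at 167 and 126 counts in labelled-knockout libraries (edgeR adjusted p = 0.173), and a copy of it, Ccl27b, matched it in 422 of 425 aligned transcript bases. The mucosal ligand Ccl28 was at 34 and 38 counts in controls and at 27 and 56 counts in labelled-knockout libraries, and Ccr10, the receptor it shares with Ccl27, at 25, 30, 33 and 50 counts; neither passed.

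The remaining receptors were low. Ccr8, of regulatory and skin-homing T cells, was at 8 and 4 counts in controls and at 29 and 28 counts in labelled-knockout libraries (log2 fold change 1.90, edgeR adjusted p = 0.0615). Ccr1l1, a Ccr1-like gene, was at 19, 7, 19 and 15 counts. Ccl1, a ligand of Ccr8, was at 0, 2, 2 and 2 counts and was not tested. Ccl26 and Cxcl15 were listed at 0 in all 4 libraries, as were Ccl21b, Ccl21d and Ccl19-ps1.

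**Figure D4:**
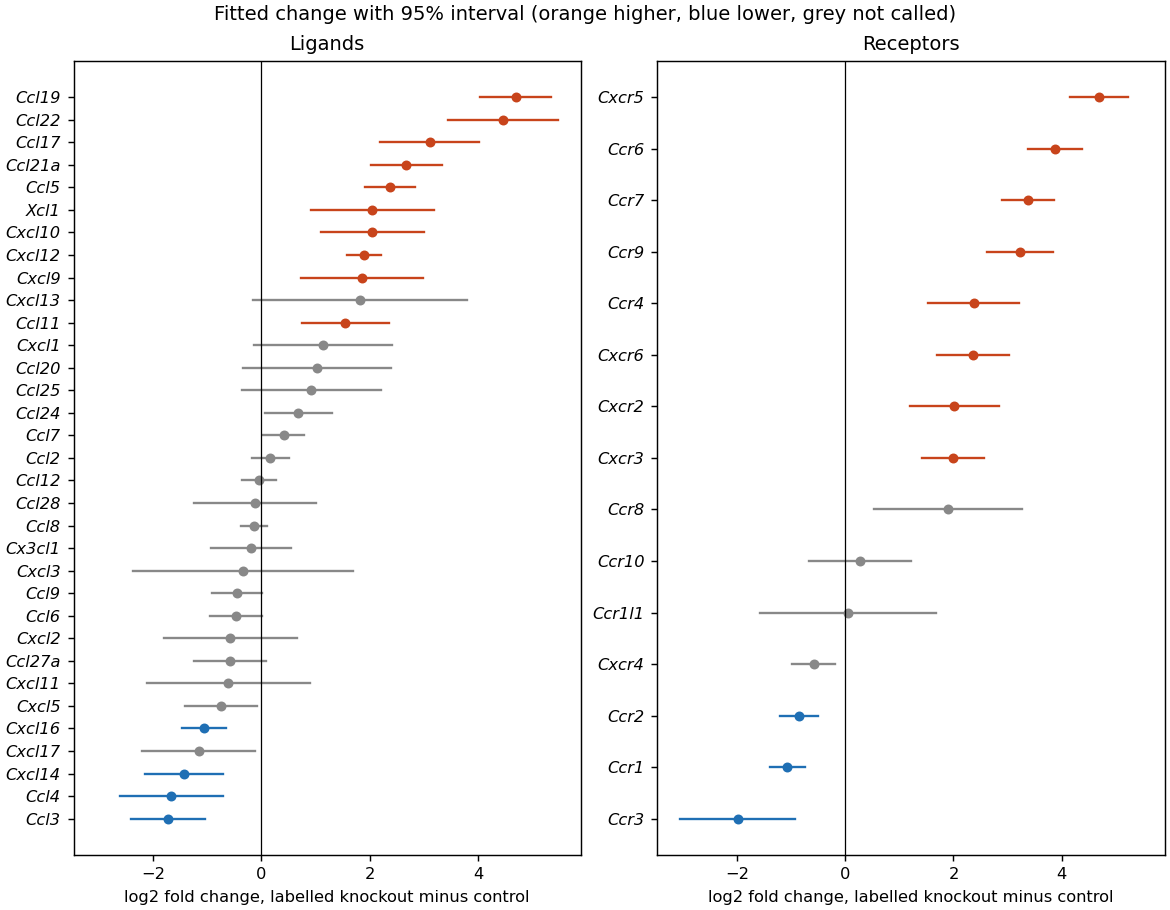
Fitted log2 fold change, labelled knockout minus control, of the 33 tested ligands and of 15 tested receptors, with 95% intervals from edgeR; orange and blue mark genes higher and lower at an adjusted p under 0.05. Receptors fall into a group of 8 that rose, a group of 3 that fell and 4 that did not pass, and many ligand intervals include 0.

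Set side by side, 28 pairs of a ligand with a receptor it is known to bind gave 7 pairs in which both rose. These were Ccl19 and Ccl21a with Ccr7, Ccl17 and Ccl22 with Ccr4, Cxcl9 and Cxcl10 with Cxcr3, and Xcl1 with Xcr1. In 2 pairs the calls were opposite: Ccl11 rose and Ccr3 fell, and Cxcl16 fell and Cxcr6 rose. In 14 pairs the receptor was called, 7 higher and 7 lower, and the ligand was not. Pairs share receptors, so they are not independent of each other, and Xcl1 reached the filter only through labelled-knockout libraries. The 28 were a chosen list and not every known pair. The called ligands Ccl3, Ccl4, Ccl5 and Cxcl14 were in none of them, so the tally depends on which pairs were listed. With control replicate 1 left out, where 5.52% of tested genes were called against 22.1%, 1 pair was left in which both rose, Ccl19 with Ccr7, and 0 with opposite calls. Without control replicate 2 there were 2 in which both rose, Ccl19 and Ccl21a with Ccr7.

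Neighbouring genes did not all move alike, but some moved together. Among receptor genes that lie together on chromosome 9, the adjacent members Ccr9 and Cxcr6 rose. Further along, Ccr1, Ccr3 and Ccr2 fell, and Ccr1l1, between Ccr1 and Ccr3, did not pass. On chromosome 11 (83525778 to 83664683), Ccl5 rose, Ccl3 and Ccl4 fell, and Ccl6 and Ccl9 did not pass. In the other chromosome 11 cluster (82035571 to 82305690), Ccl11 was the member that rose, and Ccl2, Ccl7, Ccl8 and Ccl12 did not pass. On chromosome 5 (92321347 to 92365485), Cxcl9 and Cxcl10 rose while Cxcl11, annotated as a polymorphic pseudogene, did not pass. On chromosome 4 (41769467 to 42773993), Ccl19 and Ccl21a both rose, and Ccl27a did not pass. On chromosome 8 (94745590 to 94812036), Ccl22 and Ccl17 both rose, and Cx3cl1 between them did not pass. Coordinates are those of GENCODE M21 on GRCm38, which held 57 of the 58 members.

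**Figure D5:**
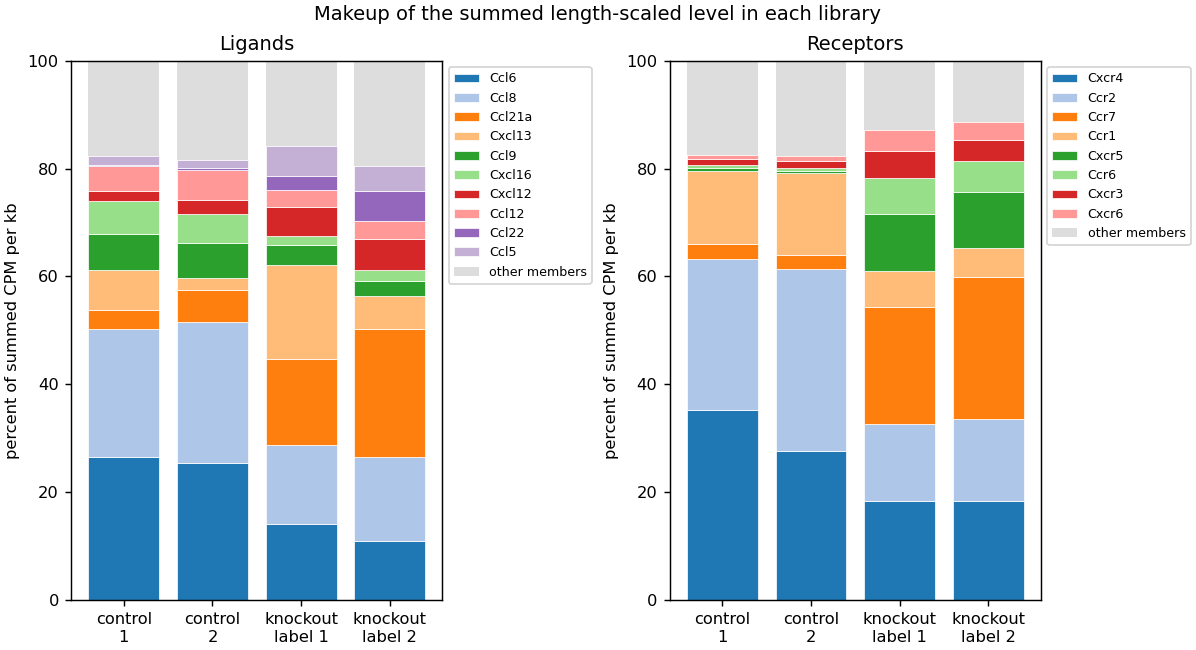
Share of the leading members, with the others in grey, in the summed CPM per kb of exon of all ligands (left) and all receptors (right), in percent, for each of the 4 libraries. The Ccl6 and Ccl8 segments are largest in controls, while Ccl21a, Ccr7 and Cxcr5 take up more of the labelled knockout bars.

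Levels of different genes were compared as CPM per kb of merged exon. In controls the highest ligand levels were Ccl6 at 226 and Ccl8 at 217 CPM per kb, followed by Ccl9 at 57.6 and Cxcl16 at 50.1. In labelled-knockout libraries the means were 259 for Ccl21a, 196 for Ccl8, 162 for Ccl6 and 155 CPM per kb for Cxcl13. That order did not hold in each library: Cxcl13 made up 17.4% of the summed ligand level in knockout replicate 1, more than Ccl21a, and 6.2% in knockout replicate 2. Ccl21a made up 3.6% and 5.9% of the summed ligand level in control replicates 1 and 2 and 16.0% and 23.8% in labelled-knockout libraries, while Ccl6 went from 26.5% and 25.3% to 13.9% and 11.0%. Among receptors, Cxcr4 (44.6 CPM per kb) and Ccr2 (43.9) led in controls, and Ccr7 (39.4) and Cxcr4 (29.8) in labelled-knockout libraries. Ccr7 made up 2.8% and 2.6% of the summed receptor level in controls and 21.7% and 26.4% in labelled-knockout libraries. Cxcr5 went from 0.5% and 0.4% to 10.7% and 10.5%, and Ccr2 from 28.2% and 33.8% to 14.4% and 15.3%. These shares carry no test, and lengths summed over all annotated exons overstate the length of genes with many rare exons.

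Genes that act with the members were counted in 3 lists, read against the 12.1% of all tested genes that rose and the 9.95% that fell. Of 9 family members under other symbols, 2 rose, 1 fell and 6 did not pass. Xcr1 and Cx3cr1 are given above, and Ackr2, a scavenger of inflammatory CC chemokines, rose from 58 and 102 counts in controls to 548 and 625 counts in labelled-knockout libraries (2.57 ± 0.28, edgeR adjusted p = 0.00693). The scavengers Ackr3 and Ackr4 were named after their values were seen and did not pass. Ackr4, which removes Ccl19 and Ccl21, was at 586 and 821 counts in controls and 855 and 780 in labelled-knockout libraries, and Ackr3, which removes Cxcl12, at 262 and 566 and at 1600 and 990 counts (edgeR adjusted p = 0.74 and 0.0709).

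Of 31 genes of chemokine receptor signalling, 11 rose, 3 fell and 17 did not pass. Those with the smallest p were Grk6, a kinase that desensitises the receptors (1.31 ± 0.12, edgeR adjusted p = 0.00446), Elmo1, a partner of the Rac activator Dock2 (0.87 ± 0.09, edgeR adjusted p = 0.00595), and Rac2, a leukocyte GTPase of cell movement (1.18 ± 0.12, edgeR adjusted p = 0.00673). The 3 that fell, named after their values were seen, were Rgs10 and Rgs2, which shorten G protein signals, and the arrestin Arrb2, with log2 fold changes of −1.33, −0.68 and −0.61. Without control replicate 1, 6 of this list rose and 1 fell.

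Of 17 genes of lymphotoxin and noncanonical NF-kB signalling, the pathway that induces Ccl19, Ccl21 and Cxcl13 in lymphoid stroma, 10 rose, 1 fell and 6 did not pass. Tnfsf11, or RANK ligand, went from 10 and 12 counts in controls to 619 and 573 counts in labelled-knockout libraries (5.43 ± 0.23, edgeR adjusted p = 0.00153). Tnfrsf13c, the BAFF receptor of B cells, rose by 4.91 ± 0.37 and Ltb, lymphotoxin beta, by 2.66 ± 0.23 (edgeR adjusted p = 0.0032 and 0.00418). The gene that fell, named after its value was seen, was Ltbr, the stromal lymphotoxin beta receptor, with 2457 and 2649 counts in controls and 1963 and 2072 counts in labelled-knockout libraries (log2 fold change −0.66, edgeR adjusted p = 0.0107). B cell and T cell markers, with values given above, rose in the same libraries, and their part in these counts was not tested.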

How the data were processed

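The 4 pancreas RNA libraries were grouped by sample title. The submitters' processing notes name, with no order, STAR 2.7.6a, featureCounts 2.0.1, Trim Galore 0.6.6, FastQC 0.11.9, SAMtools 1.7 and GRCm38. Annotation release and strand setting: not given in the sources used here. Raw counts per gene symbol were deposited by the authors, 1 file per library. The test, run in R 4.3.3, was that of edgeR 4.0.16 (genes kept by filterByExpr, TMM factors, quasi-likelihood test of group alone, Benjamini-Hochberg adjustment). CPM uses TMM-scaled totals of tested genes. SE was taken as log2 fold change over root F. The step was tested on simulated data of 18748 genes, in which 20% of 100 genes changed 2-fold and 99% of 100 changed 4-fold were called; fewer genes changed there than here. Replicate counts differed beyond sampling noise (chi-square per degree of freedom 36.6 and 48.5). Members, lists and pairs were chosen with earlier results of these data known. Named are members with a group mean of 2 CPM or more (1 CPM if called), with SE for the 25 called members with the smallest p; the other members, single marker genes and those said so were named after their values were seen. Alternatives were 3 scalings, 2 filters, DESeq2 1.42.0, limma-voom (limma 3.58.1), a 2-fold rule, the replicate block and leaving out each library. Counts over members cover all of them, but 1 receptor is not reported here by name or drawn.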

Additional observations from a re-analysis of the deposited data

How the results depend on the processing

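All 26 called members kept their direction in every alternative, and 24 to 26 of them passed with other scalings, filters, DESeq2, limma-voom, the replicate block or without either knockout library; 20 passed without control replicate 2 and 9 without control replicate 1. Leaving out 1 library at a time gave 8 to 19 members higher and 1 to 9 lower, 3 to 11 ligands higher and 0 to 5 lower, and 5 to 8 receptors higher and 1 to 4 lower, with a median member change of 0.24 to 0.97. It gave 6 to 11 signalling genes higher and 1 to 2 lower. The lone library of a group is then assumed to vary like the other group. The groups did not overlap for any of the 26 called members, so leaving out 1 library could hardly turn their direction. Leaving out the scaling shifted the log2 fold change by a median of 0.098 over all genes, less than the change of any called member. Their kept direction therefore says little about stability. Requiring a 2-fold change left 2 receptors lower, 4 signalling genes higher and 1 lower, and 6 lymphotoxin genes higher and 0 lower (limma-voom and DESeq2 without that rule called 1 lower). Without a low-count filter the median member change was 0.68. The labels do not say if same-numbered samples were paired. Their deviations correlated at −0.04 over 18924 genes and at 0.36 over the 49 members, which cannot decide it. With the replicate block (10.2% of tested genes higher, 7.48% lower), 18 members were higher and 8 lower, Cxcl13 was called (1.94, edgeR adjusted p = 0.00389), Xcl1 was not, and 1 signalling gene was lower in place of 3.

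The log2 fold change changed sign, for genes that were not called, in these cases, and the cause was not tested. Ccl12 was at 0.0553 without scaling and from −0.0855 to 0.00399 when 1 library was left out. Leaving out 1 library gave −0.0403 to 1.49 for Ccl25, −0.69 to 0.28 for Ccl28, −0.0164 to 0.51 for Ccr10, −0.53 to 1.02 for Ccr1l1, −0.54 to 0.27 for Cx3cl1 and −1.05 to 1.04 for Cxcl3. Signalling genes higher numbered 16 without scaling and by DESeq2, where 14.8% and 15.0% of tested genes were higher. In simulated data with fewer changed genes than here, 20% of 2-fold changes were called. That share need not hold here, but changes of that size can be missed.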
